A study of Mus musculus with 10 samples.

Results

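The common gamma chain, encoded by Il2rg, is the subunit that the receptors for interleukin-2, 4, 7, 9, 15 and 21 share. Here 10 genes around it were followed in tumor-draining lymph nodes (TDLNs): the cytokines Il2, Il7 and Il15, the shared chain Il2rg, and the partner chains Il2ra, Il2rb, Il7r, Il15ra, Il4ra and Il21r. They were taken by name out of 33585 genes. All 10 were found in the expression tables, and 9 of them, all except Il2, had a mean of at least 1 FPKM and were among the 13334 genes tested. None of the 9 was called different between the treatment groups, in either direction, by the rule the study names. The data hold the level of each gene in the node, the order of these levels, and how far single libraries moved them.

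The nodes came from wild-type female BALB/c mice, 6 weeks old, that carried subcutaneous tumors of 4T1, a mouse mammary carcinoma cell line. All tumors received microwave ablation (MWA), a heat treatment, on day 10. In the MWA group the mice were then injected with PBS, the vehicle, and in the MWA+2DG group with 500 mg/kg of 2-deoxy-D-glucose (2DG), a glucose analogue that blocks glycolysis, every 2 days. The nodes were taken on day 15, while injections were still being given, and each group had 5 libraries, 1 from each mouse. Nodes of mice without ablation were not analysed here, so the comparison is of 2DG against PBS after ablation. Whole nodes were sequenced, so RNA of lymphocytes, myeloid cells, stroma and vessels was measured together, and fewer cells of a type cannot be told apart from less RNA per cell.

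Cytokines of this family bind a receptor chain of their own together with the common gamma chain, and signal through the kinases JAK1 and JAK3 to STAT5, STAT3 or STAT6. Interleukin-7, made mainly by stromal cells of the node, and interleukin-15, which myeloid cells present bound to its own receptor chain, keep naive and memory T cells alive, and interleukin-2 is made by activated T cells. The question put to these data was whether the transcripts of these cytokines and receptors differ in the draining node when glycolysis is inhibited after ablation.

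Library totals differed in summed FPKM (a gene's fragments divided by transcript length and by the mapped reads of the library), which ran from 316374 to 359984 in the MWA group and from 312143 to 325765 in the MWA+2DG group. FPKM holds no read counts, so the depth is unknown. Defining markers of T cells, B cells and reticular stroma were present in every library, and no marker gene of the 16 cell type lists was at 0 throughout. Apart from the lists given beside the genes below, 2 plasma cell genes, Xbp1 and Mzb1, and 2 neutrophil genes, S100a8 and S100a9, were called lower with 2DG by the rule given below, and no gene of the endothelial, epithelial, adipose, muscle, liver or red blood cell lists was called. Replicates 1 and 2 of both groups lay apart from replicates 3 to 5 of both groups on the first principal component, which held 36.4% of the variance, and 488 genes but none of the 9 tested members differed between these replicate sets (limma, Benjamini-Hochberg adjusted p below 0.05). The labels name no batch. The split into these sets came from earlier results of these same data, so the count of 488 describes it and does not test it. The summed level of the 9 liver genes followed these sets, at 22.0 to 31.1 FPKM in replicates 1 and 2 and 84.9 to 197 FPKM in replicates 3 to 5. The part of liver RNA in the split was not tested. The library MWA+2DG replicate 5 stood apart for several of the genes followed here, and group differences without it are given where they moved.

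The 10 genes covered a wide range of levels. FPKM is divided by transcript length, so genes can be set side by side on it. Il2rg was the highest, with a mean of 155 FPKM over the 10 libraries, and the ranges of all other members lay below its own. Il21r followed with 51.8 FPKM, then Il4ra with 37.5, Il2rb with 35.1 and Il7r with 28.1 FPKM. A gap separated these from Il2ra with 6.43 FPKM and Il15ra with 4.65 FPKM. The cytokines were lowest, with Il15 at 2.44 FPKM, Il7 at 1.39 FPKM and Il2 at 0.490 FPKM.

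Between neighbours in that order, the ranges over the 10 libraries were separate after Il2rg, after Il7r, after Il15 and after Il7. Il21r and Il4ra had overlapping ranges, yet Il21r was above Il4ra in all 10 libraries, and so was Il15ra above Il15. Il4ra against Il2rb, Il2rb against Il7r and Il2ra against Il15ra kept their order in 8 of the 10 libraries each, so the order within these pairs is not beyond the spread between libraries.

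**Figure D1:**
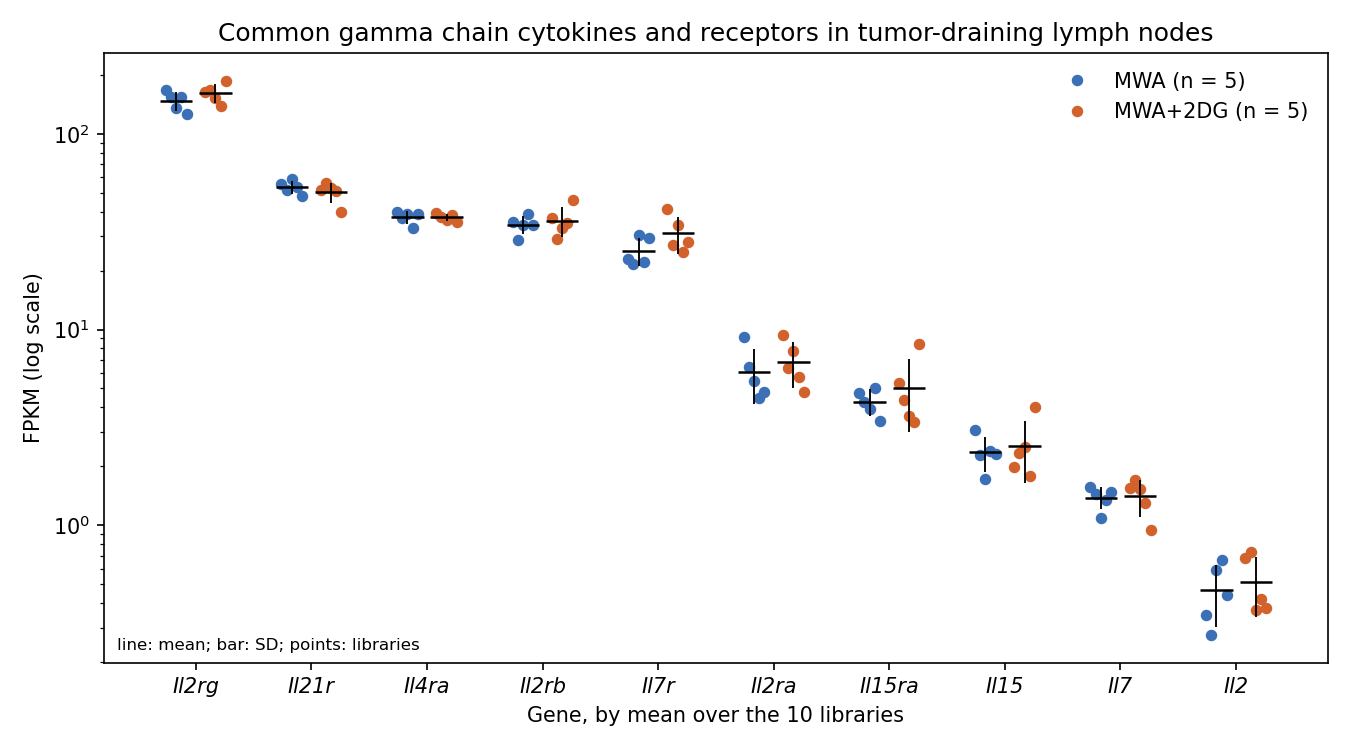
FPKM (log axis) of the 10 genes in each library, with blue points for the 5 MWA libraries, orange points for the 5 MWA+2DG libraries, and black marks for the group mean and SD. Genes are ordered from Il2rg at 155 FPKM to Il2 at 0.490 FPKM, and the points of the 2 groups overlap for every gene.

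The shared chain was in excess over each partner chain in every library. The ratio of Il2rg to Il21r was the smallest, with a median of 2.93 (range 2.30 to 4.70), and the ratios to Il4ra and Il2rb had medians of 4.18 and 4.24. For Il7r the median ratio was 5.86, for Il2ra 24.4 and for Il15ra 35.6. These are ratios of transcript levels in the whole node, where B cells carry some of the chains and T cells others.

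The promoters of 7 of the 10 genes were found in the RefSeq table (GRCm38.p6), while Il7, Il15 and Il2rb were not. In the 250 bases before each start site a motif of the STAT factors, TTCNNNGAA, was searched. It reads the same on both strands, and 7.02% of 32851 promoters of that length hold it. It was found in 1 of the 8 entries of these 7 genes, that of Il7r, 142 bases before the start. The upstream sequences of Il7r, the receptor chain with the largest group difference, and of Il2rg, the highest chain, are shown for reference, with the motif in capitals. The first is chr15:9529877-9530126 on the minus strand and the second chrX:101268256-101268505 on the minus strand. A match is a match of letters only, and no binding was measured.
Il7r: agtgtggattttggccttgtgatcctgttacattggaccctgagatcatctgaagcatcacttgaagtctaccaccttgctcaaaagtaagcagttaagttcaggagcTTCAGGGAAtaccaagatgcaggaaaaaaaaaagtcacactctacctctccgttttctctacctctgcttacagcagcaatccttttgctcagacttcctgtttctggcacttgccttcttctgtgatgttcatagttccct
Il2rg: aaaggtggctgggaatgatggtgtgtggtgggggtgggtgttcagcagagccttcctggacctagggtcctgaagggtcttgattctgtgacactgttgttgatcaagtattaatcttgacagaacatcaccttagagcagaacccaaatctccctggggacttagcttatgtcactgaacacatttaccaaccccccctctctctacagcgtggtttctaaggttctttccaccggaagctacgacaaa

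In the comparison of MWA+2DG with MWA, limma was run on log2(FPKM + 1), and a gene was called at an unadjusted P below 0.05 with a log2 fold change beyond 0.25. Of the 9 tested members 0 were called higher, where 0.952% of all tested genes were, and 0 were called lower, where 1.87% were. With an adjusted p below 0.05, 0 members and 0% of all genes passed, and the smallest adjusted p over all genes was 0.995 (limma with Benjamini-Hochberg adjustment). At an unadjusted P below 0.05 limma passed 567 genes and the exact Wilcoxon rank-sum test 416, and 0 members were among either. The 2 groups overlapped for all 10 members, and they did not overlap for 0.802% of the tested genes. Of the 9 tested members 7 leaned upward and their median log2 fold change was 0.06, where 52.6% of all tested genes leaned upward with a median of 0.01.

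**Figure D2:**
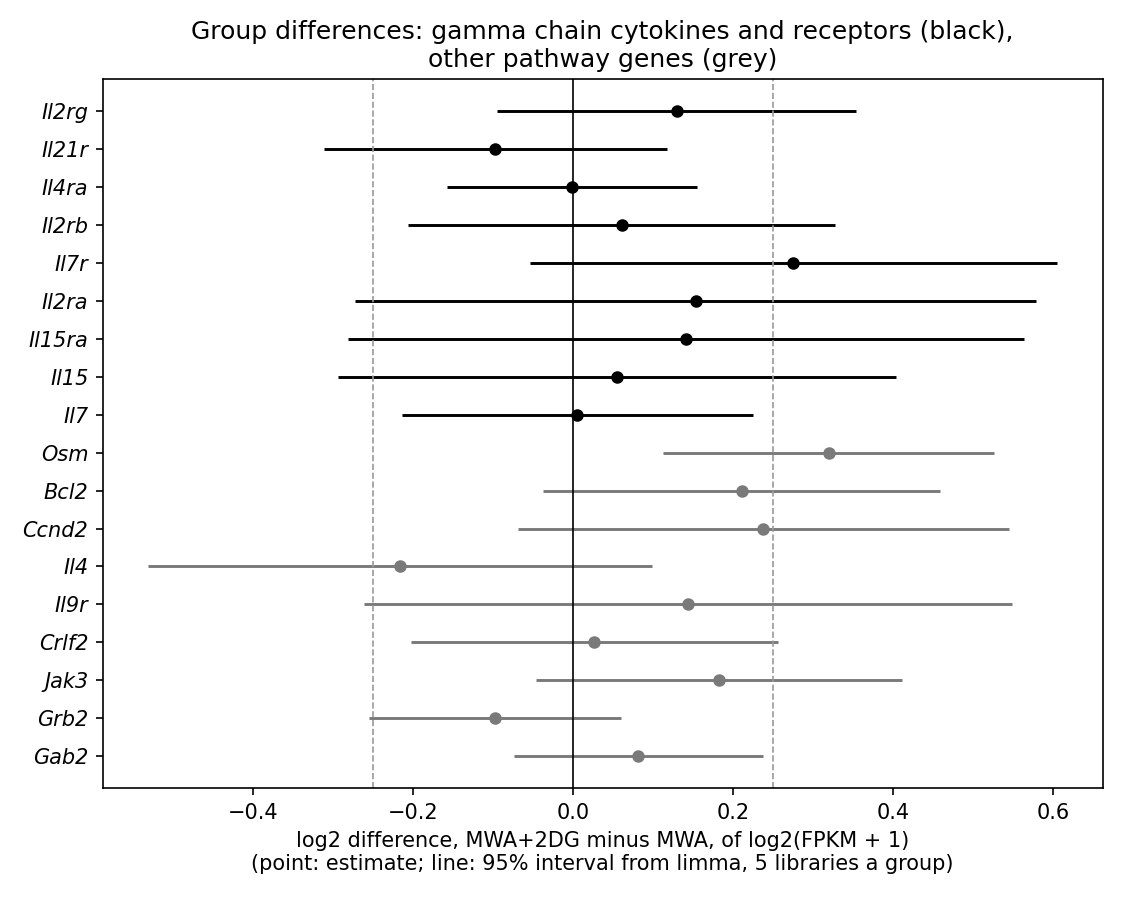
Difference between the groups (MWA+2DG minus MWA) on the log2(FPKM + 1) scale for the 9 tested members in black and 9 other genes of the pathway in grey, with 95% intervals from limma as lines and the threshold of 0.25 in each direction as dashed lines. The intervals of all 9 members include 0, Il7r comes nearest to lying above it, and Osm is the only gene drawn whose interval lies above 0.

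Il7r (ENSMUSG00000003882), the receptor chain for interleukin-7 and a marker of naive and memory T cells known as CD127, had the largest difference of the members. It was at 22.9, 21.7, 30.4, 22.2 and 29.3 FPKM in MWA replicates 1 to 5, and at 41.1, 27.1, 34.1, 24.8 and 28.0 FPKM in MWA+2DG replicates 1 to 5. MWA+2DG replicates 1 and 3 lay above every MWA library, while the other 3 lay among the MWA values. The mean was 25.3 ± 4.18 FPKM (SD, n = 5) with MWA alone and 31.0 ± 6.63 FPKM (SD, n = 5) with 2DG added. On the log2 scale this was a difference of 0.28 (SE 0.15, 95% interval -0.05 to 0.60), with an adjusted p of 0.995 in limma. The exact permutation test gave p = 0.143 (two-sided, 5 against 5, smallest possible p 0.00794), and p = 0.183 when labels were exchanged only within the replicate sets (smallest possible p 0.0167).

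The call of Il7r depended on the scaling and on single libraries. Rescaling each library to the same total moved its log2 fold change to 0.35, past the rule (unadjusted P = 0.0425 in the limma fit across all genes). Leaving out MWA+2DG replicate 4 also gave 0.35 (unadjusted P = 0.0453 in the same kind of fit), and leaving out MWA+2DG replicate 1 lowered it to 0.17 (unadjusted P = 0.229). With each other library left out it lay between 0.23 and 0.34 and did not pass the rule. That rescaling shifted the median log2 fold change of all genes from 0.01 to 0.07 and turned the split of calls from 127 higher and 249 lower to 328 higher and 159 lower, so 67.4% of calls were higher in place of 33.8%. Relative to the median of all genes, Il7r was 0.27 higher as deposited and 0.28 higher after rescaling.

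Genes of T cells leaned the same way as Il7r. All 15 genes of a T cell identity list had a positive log2 fold change (median 0.18), where 52.6% of all tested genes did. Of 8 genes of naive and central memory T cells 3 were called higher, the transcription regulators Lef1, Tcf7 and Satb1, and the median log2 fold change of the 8 was 0.24. Of all tested genes 0.952% were called higher. The gene lists were chosen with earlier results of these data known, so these counts, and those of the lists below, describe and do not test. The summed level of the 8 genes was 376 to 429 FPKM in the MWA group and 422 to 528 FPKM in the MWA+2DG group. Per library, the mean log2(FPKM + 1) of the 15 identity genes was 0.17 higher in the MWA+2DG group (exact permutation p = 0.262, 5 against 5; within replicate sets p = 0.133). With all 10 libraries, each difference against that mean therefore lies 0.17 below the gene's own difference, here and in the paragraphs below. Set against that mean, the difference of Il7r was 0.11 (exact permutation p = 0.579, 5 against 5), and no MWA+2DG library lay above all MWA libraries. The part of these genes in the difference of Il7r was not tested further.

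Il7 (ENSMUSG00000040329) itself, the ligand of that receptor, was at a similar level in the groups. It ran from 1.09 to 1.57 FPKM in the MWA group (median 1.44) and from 0.940 to 1.71 FPKM in the MWA+2DG group (median 1.53). The log2 fold change was 0.01 (SE 0.10, 95% interval -0.21 to 0.22). The lowest value was that of MWA+2DG replicate 5, and without that library the log2 fold change was 0.08. Of the 11 genes of reticular stroma, the cells that make interleukin-7 in the node, 0 were called, and their summed level was 1155 to 1673 FPKM in the MWA group and 1232 to 1897 FPKM in the MWA+2DG group. Against the mean of the T cell identity genes, Il7 was 0.16 lower with 2DG (exact permutation p = 0.0714, 5 against 5; within replicate sets p = 0.05). That mean was itself 0.17 higher with 2DG, so this relative difference lies mostly in the T cell genes and not in Il7. This difference passed 0.05 when libraries were rescaled (-0.18, exact permutation p = 0.0476, 5 against 5) and when MWA replicate 1 was left out (-0.22, exact permutation p = 0.00794, 4 against 5, the smallest possible). With each other library left out it did not pass, and it came down to -0.09 without MWA replicate 4 (exact permutation p = 0.135, 4 against 5). MWA replicate 1 was the highest library for the summed T cell identity genes (721 FPKM), and without it the difference of Il7 itself was 0.03. The p values of these leave-outs were not corrected for their number.

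Il15 (ENSMUSG00000031712), the cytokine that sustains memory CD8 T cells and NK cells, was at 3.05, 2.27, 1.72, 2.41 and 2.32 FPKM in MWA replicates 1 to 5. In MWA+2DG replicates 1 to 5 it was at 1.99, 2.34, 2.51, 1.79 and 4.04 FPKM. Apart from MWA+2DG replicate 5, the MWA+2DG libraries lay within the range of the MWA group. Between the groups the log2 fold change was 0.05 (SE 0.16, 95% interval -0.29 to 0.40), and it was -0.08 without MWA+2DG replicate 5. Against the T cell identity genes the difference was -0.11 (exact permutation p = 0.667, 5 against 5), and without that library -0.33 (exact permutation p = 0.00794, 5 against 4, the smallest possible). With each other library left out it lay between -0.14 and -0.01 and did not pass 0.05, and it was nearest to 0 without MWA+2DG replicate 1 (-0.01), MWA replicate 4 (-0.03) and MWA+2DG replicate 4 (-0.04). MWA+2DG replicate 5 holds the highest Il15 value, and the p without it was not corrected for that or for the number of leave-outs. Among the cells that present interleukin-15, 0 of 11 dendritic cell genes were called, and 1 of 10 tested macrophage genes, Csf1r, was called lower. Their summed levels overlapped between the groups, at 99.2 to 236 FPKM and 116 to 195 FPKM for dendritic cells and at 219 to 318 FPKM and 193 to 267 FPKM for macrophages (MWA first).

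Il15ra (ENSMUSG00000023206), the chain that binds interleukin-15 and presents it to neighbouring cells, showed the same library still further apart. Its levels were 4.77, 4.28, 3.91, 5.05 and 3.40 FPKM in MWA replicates 1 to 5 and 5.33, 4.38, 3.63, 3.37 and 8.39 FPKM in MWA+2DG replicates 1 to 5. Within the MWA+2DG group the coefficient of variation was 40.5%, against 15.4% in the MWA group. The log2 fold change was 0.14 (SE 0.19, 95% interval -0.28 to 0.56), and without MWA+2DG replicate 5 it was -0.03.

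Il2rb (ENSMUSG00000068227), the signalling chain that interleukin-2 and interleukin-15 share, was at 35.5, 28.7, 34.0, 38.7 and 34.3 FPKM in MWA replicates 1 to 5 and at 36.9, 29.0, 33.1, 34.8 and 46.1 FPKM in MWA+2DG replicates 1 to 5. Again the highest value was that of MWA+2DG replicate 5. Its log2 fold change was 0.06 (SE 0.12, 95% interval -0.21 to 0.33), and -0.03 without that library. NK cells carry much Il2rb. The summed level of the 11 NK and innate lymphoid genes was 92.5 to 173 FPKM in the MWA group and 86.0 to 220 FPKM in the MWA+2DG group. This sum was highest in MWA+2DG replicate 5, and 0 of 7 tested genes were called. Within the MWA group the sum was highest in replicate 5, where Il2rb was at 34.3 FPKM. The lowest sum was in MWA+2DG replicate 1, where Il2rb was at 36.9 FPKM.

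MWA+2DG replicate 5 thus held the highest value of 4 members, Il15, Il15ra, Il2rb and Il2rg, and the lowest of Il7 and Il21r. No other library held the highest value of more than 2 of the 9 tested members. Other genes were far from the rest in the same library. Socs1, an inhibitor of cytokine signalling, was at 31.2 FPKM there and at 6.64 to 14.5 FPKM in the other 9 libraries, and Socs3, a related inhibitor, was at 47.3 FPKM there, its highest level (both were singled out after their values were seen). The interferon-induced factor Irf1 was at 119 FPKM there and at 39.6 to 69.6 FPKM elsewhere. Irf1 was picked because its level went along closely with Il15ra over the libraries, and Il15ra was itself highest in MWA+2DG replicate 5. The high level of Irf1 in that library therefore comes with the choice and is no separate evidence that the library stood apart. The summed level of 7 adipose tissue genes was 97.6 FPKM in that library, against 5.15 to 52.9 FPKM in the other 9. The part of adipose tissue or NK cell RNA in the levels of the receptor genes was not tested.

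**Figure D3:**
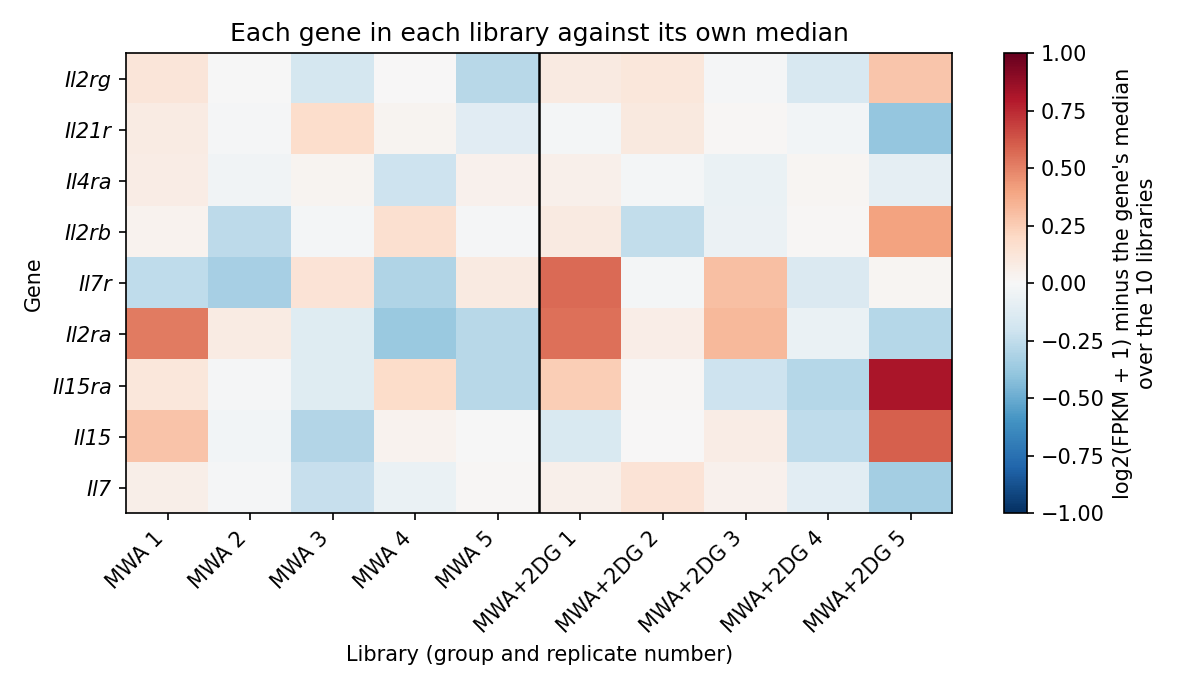
Each of the 9 tested genes (vertical axis) in each library (horizontal axis) as log2(FPKM + 1) minus that gene's median over the 10 libraries, from blue (below the median) to red (above), with a line between the groups. Il15ra and Il15 are darkest red in MWA+2DG replicate 5, where they stand 0.82 and 0.60 above their medians, and Il2ra and Il7r are red in MWA+2DG replicates 1 and 3. Il2ra is also red in MWA replicate 1, at 0.52 above its median, against 0.55 in MWA+2DG replicate 1.

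Il2rg (ENSMUSG00000031304), the shared chain itself, was at 168, 154, 136, 154 and 127 FPKM in MWA replicates 1 to 5 and at 164, 167, 153, 138 and 187 FPKM in MWA+2DG replicates 1 to 5. Its mean was 148 ± 16.3 FPKM (SD, n = 5) in the MWA group and 162 ± 18.0 FPKM (SD, n = 5) in the other group, and 1 MWA+2DG library lay above every MWA library. Its log2 fold change was 0.13 (SE 0.10, 95% interval -0.10 to 0.35), it was 0.08 without MWA+2DG replicate 5 or without MWA replicate 5, and it stayed positive with any 1 library left out. Against the T cell identity genes the difference was -0.04 (exact permutation p = 0.810, 5 against 5), and it turned to 0.01 under quantile normalization.

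Il2ra (ENSMUSG00000026770), the high-affinity chain for interleukin-2 (CD25) found on regulatory and activated T cells, was at 9.12, 6.45, 5.48, 4.44 and 4.80 FPKM in MWA replicates 1 to 5. In MWA+2DG replicates 1 to 5 it was at 9.34, 6.37, 7.81, 5.72 and 4.79 FPKM. Replicate 1 was the highest library of both groups. The log2 fold change between the groups was 0.15 (SE 0.19, 95% interval -0.27 to 0.58). It ran from 0.04 without MWA+2DG replicate 1 to 0.29 without MWA replicate 1, and was 0.25 with MWA+2DG replicate 5 left out. It was 0.07, 0.09 and 0.10 with MWA replicate 4, MWA replicate 5 or MWA+2DG replicate 3 left out. Between the replicate sets it was -0.44, lower in replicates 3 to 5 (adjusted p = 0.139, limma with Benjamini-Hochberg adjustment), the largest such difference among the members. Of 7 tested genes of regulatory T cells 0 were called, with summed levels of 88.2 to 165 FPKM in the MWA group and 110 to 137 FPKM in the MWA+2DG group, and replicate 1 was the highest library of these genes in the MWA group.

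Il2 (ENSMUSG00000027720), the growth factor of activated T cells, was the lowest of the 10 and below 1 FPKM in every library. It lay between 0.275 and 0.666 FPKM in the MWA group and between 0.371 and 0.732 FPKM in the MWA+2DG group, where replicates 1 and 2 exceeded every MWA library. Its mean was 0.464 ± 0.163 FPKM (SD, n = 5) with MWA alone and 0.515 ± 0.175 FPKM (SD, n = 5) with 2DG added, and the difference on the log2(FPKM + 1) scale was 0.05 (exact permutation p = 0.595, 5 against 5). The difference was 0.08 with MWA+2DG replicate 5 left out and -0.00 with MWA+2DG replicate 2 left out. At this level a pseudocount of 1 FPKM compresses any difference.

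Il4ra (ENSMUSG00000030748), the receptor chain for interleukin-4 and interleukin-13, was the steadiest of the 10, with a coefficient of variation of 5.77% over all libraries. It ran from 32.9 to 40.0 FPKM (median 38.8) in the MWA group and from 35.6 to 39.4 FPKM (median 37.5) in the MWA+2DG group. With 2DG the log2 fold change was -0.00 (SE 0.07, 95% interval -0.16 to 0.15), and its sign turned under rescaling (0.06) and quantile normalization (0.04). Against the T cell identity genes it was 0.17 lower (exact permutation p = 0.151, 5 against 5), and 0.23 lower without MWA+2DG replicate 5 (exact permutation p = 0.0397, 5 against 4). No other leave-out passed 0.05, and without MWA replicate 3 it was 0.11 lower (exact permutation p = 0.294, 4 against 5). The p values of these leave-outs were not corrected for their number. The mean of the T cell identity genes was itself 0.17 higher with 2DG, so the relative difference lies in those genes and not in Il4ra.

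Il21r (ENSMUSG00000030745), the receptor chain for interleukin-21, a cytokine of follicular helper T cells that acts on B cells, had the largest negative difference. It was at 55.3, 51.9, 59.0, 53.3 and 48.1 FPKM in MWA replicates 1 to 5 and at 51.5, 55.8, 52.6, 51.1 and 39.8 FPKM in MWA+2DG replicates 1 to 5. The log2 fold change was -0.10 (SE 0.10, 95% interval -0.31 to 0.12; exact permutation p = 0.381 for 5 against 5), and without MWA+2DG replicate 5, the lowest library, it was -0.02. All 11 B cell genes also had a negative log2 fold change (median -0.07), with 0 called. Against the T cell identity genes Il21r was 0.26 lower with 2DG (exact permutation p = 0.0952, 5 against 5). That difference passed 0.05 without MWA replicate 1 (-0.34, exact permutation p = 0.0159, 4 against 5) or without MWA replicate 5 (-0.32, exact permutation p = 0.0397, 4 against 5). With each other library left out it did not pass, and without MWA replicate 3 it was -0.18 (exact permutation p = 0.135, 4 against 5). The difference of Il21r itself was -0.08 without MWA replicate 1 and -0.13 without MWA replicate 5. MWA replicate 1 was the highest library for the summed T cell identity genes (721 FPKM). The p values of these leave-outs were not corrected for their number.

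**Figure D4:**
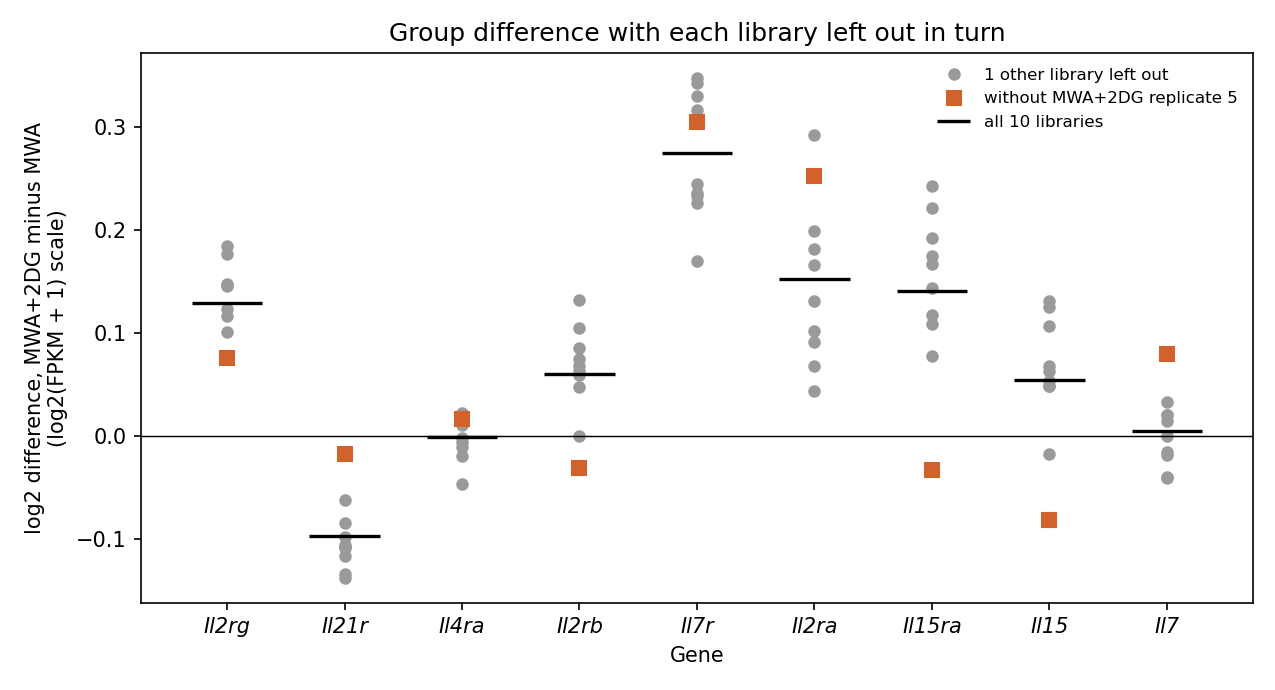
Group difference (MWA+2DG minus MWA, log2(FPKM + 1) scale) of the 9 tested genes with all 10 libraries (black line), without MWA+2DG replicate 5 (orange square) and without each of the other 9 libraries in turn (grey points). Without MWA+2DG replicate 5 the differences of Il15, Il15ra and Il2rb lie below 0, while Il7r, Il2rg and Il2ra stay above 0 and Il21r stays below 0 throughout.

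Other genes of the pathway were counted in 3 lists. Beside these counts, 0.952% of all tested genes were called higher and 1.87% lower. Of the other cytokines and receptors of the family and its relatives, 7 of 8 were found and 4 tested, and 0 were called (median log2 fold change 0.00). Il4, the cytokine of type 2 helper T cells, was below every MWA library in 4 of the 5 MWA+2DG libraries, with a log2 fold change of -0.22 (SE 0.14, exact permutation p = 0.198 for 5 against 5). Il9r, the receptor chain for interleukin-9, had a log2 fold change of 0.14 (SE 0.18), and Crlf2, the receptor chain for the stromal cytokine TSLP, 0.03 (SE 0.10). Il13, Il21 and Tslp lay below the filter, with means of 0.0613, 0.663 and 0.425 FPKM over the 10 libraries.

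Of 12 signalling genes 0 were called. A positive log2 fold change was found for 11 of them (median 0.07), where 52.6% of all tested genes had one (median 0.01). Jak3, the kinase that binds the common gamma chain, was at 35.6 to 52.4 FPKM in the MWA group and at 48.8 to 57.8 FPKM in the MWA+2DG group, where all 5 libraries exceeded the MWA mean. Its log2 fold change was 0.18 (SE 0.10, exact permutation p = 0.0952 for 5 against 5). The adaptor genes Grb2 and Gab2 had log2 fold changes of -0.10 (SE 0.07) and 0.08 (SE 0.07).

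Of 14 feedback and target genes 1 was called, Osm, and it was higher. Osm, the gene of oncostatin M, a cytokine that STAT5 induces, was at 4.33, 3.06, 3.20, 3.37 and 3.12 FPKM in MWA replicates 1 to 5 and at 4.92, 4.34, 4.52, 3.81 and 4.90 FPKM in MWA+2DG replicates 1 to 5. MWA+2DG replicates 1, 2, 3 and 5 lay above every MWA library, and MWA replicate 1 lay above MWA+2DG replicate 4. Its log2 fold change was 0.32 (SE 0.09, exact permutation p = 0.0159 for 5 against 5), with an adjusted p of 0.995 in limma. Bcl2, a survival factor downstream of interleukin-7, had a log2 fold change of 0.21 (SE 0.11), and Ccnd2, a cyclin, 0.24 (SE 0.14). Neither passed the rule, and in both genes all 5 MWA+2DG libraries lay above the mean of the MWA group.

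The genes whose levels went along most closely with each member over the 10 libraries were taken by Pearson's r of log2(FPKM + 1), 3 for each, as a description. The points share the 2 replicate sets and MWA+2DG replicate 5, so r is also given without that library. For Il15ra they were Stat3 (0.95), Irf1 (0.94) and Dram1 (0.93), which fell to 0.87, 0.81 and 0.78 without it. Il15 went with Stoml1 (0.93), Mppe1 (0.92) and Epsti1 (0.91), an interferon-induced gene, with 0.88, 0.80 and 0.77 without it. Il2rb went with Itgax (0.92), the integrin chain CD11c of dendritic cells, Arf4 (0.90) and the chemokine gene Ccl2 (0.89), with 0.83, 0.77 and 0.79 (Itgax, Arf4, Ccl2) without it. For Il21r these were Zdhhc2 (0.92), Dazap1 (0.92) and Egr2 (0.92), with 0.71, 0.75 and 0.72 without it.

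Values for the other members follow, and r of Il7r with Slc19a2 rose when that library was left out. Il2ra went with Commd8, Spata6 and Pxylp1 (0.96, 0.96 and 0.94, and 0.96, 0.96 and 0.94 without it). Il2rg went with Stxbp3 (0.96), Tspan2 (0.94) and Nucb2 (0.91), with 0.95, 0.91 and 0.86 without it. Il7r went with Slc19a2 (0.86), a thiamine transporter, Myl9 (0.85) and Cytip (0.84), with 0.95, 0.86 and 0.85 without it. Il7 went with Pot1a (0.94), Nudt16 (0.94) and Acad9 (0.93), with 0.89, 0.91 and 0.88 without it. Il4ra went with Snord49b (0.95), Gpaa1 (0.93) and Meis3 (0.91), with 0.94, 0.93 and 0.92 without it. Each trio holds the highest values of r out of the 13334 tested genes, predicted genes left out, so high values come with the choice.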

How the data were processed

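RNA of 10 TDLNs was sequenced as paired ends after poly(A) selection, with molecular identifiers in the adapters. The authors deposited FPKM per gene, 1 table per library. The paper names fastp, HISAT2, StringTie and ballgown. The submitters' processing notes name cutadapt 1.9, HISAT2 2.0.4, UMI-tools, StringTie 1.3.4d and the build mm9. FPKM is divided by length and mapped reads, so depth is unknown, and the smallest value above 0 was 1e-06, so whole reads were not recovered. Symbols were matched for 33541 of 33643 identifiers, and 57 shared symbols were summed, which left 33585 genes. Those averaging at least 1 FPKM were fitted on log2(FPKM + 1) with limma 3.58.1 (R 4.3.3), which understates the change of low genes. The study names limma, P below 0.05 and a log fold change beyond 0.25. The pseudocount, filter, log base and adjustment were chosen here. Exact permutation tests (two-sided) enumerated 252 regroupings, or 120 within replicate sets. The fit was tested on simulated data. Members, gene lists and the replicate sets were chosen with earlier results of these data known. Of pathway lists, the called genes, those with separate groups and the 3 of smallest P were named, and markers as lists. Alternatives were another pseudocount (0.1 FPKM), filters, scalings, limma-trend, an exact Wilcoxon test, a replicate block, a set term and leaving out each library. The result of another gene of these lists is not reported here.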

Additional observations from a re-analysis of the deposited data

Results flagged for a closer look

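In 38 groups of 5 libraries (the 10 cytokine and receptor genes and 9 named pathway genes, each in both treatment groups), the gap of the highest or lowest library to its neighbour was set against the whole range (Dixon's test, critical value 0.71), and 3 groups passed. Chance flags about 1 in 20 groups. None of the 3 was a group of one of the 10 cytokine and receptor genes. Osm in MWA replicate 1 was at 4.333 FPKM, with the next MWA library at 3.37 FPKM. Il4 in MWA+2DG replicate 2 was at 1.869 FPKM, with the next MWA+2DG library at 0.919 FPKM. Il9r in MWA+2DG replicate 5 was at 4.494 FPKM, below the next MWA+2DG library at 5.76 FPKM.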

How the results depend on the processing

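No member was called lower under any alternative, and 1 was called higher, Il7r, only after rescaling each library to 1000000 and without MWA+2DG replicate 4, so the number of members called higher ran from 0 to 1 with single libraries left out. The count of genes higher (127) was 69 with a filter of 5 FPKM, 328 after rescaling, 67 with the Wilcoxon test, 218 with no fold threshold and 82 to 222 with single libraries left out (82 without MWA replicate 5, 83 without MWA+2DG replicate 1, 199 without MWA replicate 1 and 222 without MWA+2DG replicate 5). The count of genes lower (249) was 161 with the filter of 5 FPKM, 159 after rescaling and 143 with the Wilcoxon test. The sign turned for Il7 under median ratio scaling (-0.00156), for Il4ra after rescaling (0.0624) and quantile normalization (0.0369), and for Il2rg against T cell identity genes under quantile normalization (0.0108). With single libraries left out, the log2 fold change ran from -0.00166 to 0.0967 for Il2, -0.0413 to 0.0800 for Il7, -0.0815 to 0.131 for Il15, -0.0309 to 0.132 for Il2rb, -0.0335 to 0.242 for Il15ra, -0.0469 to 0.0219 for Il4ra, 0.0439 to 0.292 for Il2ra, 0.0754 to 0.184 for Il2rg, 0.17 to 0.35 for Il7r and -0.138 to -0.0179 for Il21r. Against T cell identity genes it ran from -0.0917 to 0.0415 for Il2ra, -0.282 to 0.0102 for Il2rb, -0.175 to 0.0518 for Il2rg, -0.00609 to 0.223 for Il7r, -0.284 to 0.0978 for Il15ra, -0.218 to -0.0947 for Il7, -0.332 to -0.0125 for Il15, -0.234 to -0.108 for Il4ra and -0.335 to -0.181 for Il21r. The cause of these shifts was not tested. With the replicate number as a block, limma called 164 genes higher, 285 lower and 0 members. Deviations of libraries with the same number correlated at 0.331, 0.501, 0.110, 0.0334 and 0.151 for replicates 1 to 5, and only replicate 2 correlated best with its own number, so the numbers were not taken as pairs. Depth is unknown, which limits statements on Il2 and other genes under 1 FPKM.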
